A study of Mus musculus with 4 samples.

Results

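The Wnt co-receptor, Dishevelled and β-catenin destruction complex genes were examined as a set of 10 genes, taken by symbol from the deposited expression table: Lrp5, Lrp6, Dvl1, Dvl2, Dvl3, Axin1, Axin2, Apc, Gsk3b and Csnk1a1. All 10 were found among the 23361 genes of the table, and all 10 passed the filter on low values that left 12750 genes to test. RNA had been sequenced from 2 libraries of Nfatc1+ cells, which mark the niche in the upper hair peg, and 2 libraries of Shh+ cells of hair pegs, in mouse embryonic back skin. Both groups came from embryos that carried K14-H2BGFP, a nuclear GFP of epithelial cells, and a tdTomato reporter in the Rosa locus that a CreER recombinase switches on. The CreER was driven from Nfatc1 in one group and from Shh in the other, pregnant mice received tamoxifen at E15.5, and double-coloured cells were sorted at E17.5. Cells counted as Shh+ or Nfatc1+ are therefore those in which the driver was active when tamoxifen acted, with their descendants. The skin was handled differently for the 2 groups. Whole skin was held in 0.25% trypsin for 16 min to release Nfatc1+ cells, whereas Shh+ cells were taken from skin whose epidermis had been lifted off after 1 h in 0.4 mg/ml dispase and which then had 10 min in trypsin. Population and handling cannot be told apart in these libraries. Whether libraries of one group stem from different embryos or litters is not stated, so the p-values refer to the variation among these 4 libraries alone, and that variation may be technical.

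Without a Wnt signal, Axin and Apc form a scaffold on which casein kinase 1α (Csnk1a1) and glycogen synthase kinase 3β (Gsk3b) phosphorylate β-catenin, which is then ubiquitinated and degraded. A Wnt ligand brings a Frizzled receptor together with Lrp5 or Lrp6, Dishevelled is recruited to the membrane, and Axin is drawn away to the tail of the co-receptor, so that β-catenin accumulates and enters the nucleus with Tcf and Lef factors. Axin2 is the one gene of the set that is widely used as a target of the pathway, and its protein acts back on it. In skin, this pathway starts the hair placode. The comparison below asks which of these core genes differed between Nfatc1+ and Shh+ cells, within a study that profiled both populations to find signals that define the niche of the hair peg.

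The promoter windows of Axin2, the target gene of the set, and of Gsk3b, the one window of the set with a Tcf/Lef core motif, are printed from RefSeq on GRCm38.p6, from 250 bases before to 50 bases after the start of the gene, both on the plus strand, at chr11:108920099-108920398 and chr16:38088751-38089050. Capitals mark matches to CTTTGA or CTTTGT, the core of the Tcf/Lef motif, on either strand.
Axin2: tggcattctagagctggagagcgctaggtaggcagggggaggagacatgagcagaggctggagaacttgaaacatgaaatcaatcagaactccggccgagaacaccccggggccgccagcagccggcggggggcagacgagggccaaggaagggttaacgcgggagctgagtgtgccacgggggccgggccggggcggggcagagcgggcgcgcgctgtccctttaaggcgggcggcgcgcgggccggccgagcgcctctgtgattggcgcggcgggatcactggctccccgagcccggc
Gsk3b: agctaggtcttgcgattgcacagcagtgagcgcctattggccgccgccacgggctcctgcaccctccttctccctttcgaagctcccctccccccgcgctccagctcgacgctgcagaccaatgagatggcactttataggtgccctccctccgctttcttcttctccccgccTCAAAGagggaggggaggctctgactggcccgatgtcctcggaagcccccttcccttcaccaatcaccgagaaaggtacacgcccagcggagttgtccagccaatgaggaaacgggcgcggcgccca
The Gsk3b window held 1 match, beginning 77 bases before the start of the gene, and the Axin2 window held none. Windows were at hand for 5 of the 10 genes (Axin2, Dvl1, Dvl2, Dvl3 and Gsk3b), and the motif was in 1 of these 5, against 31.2% of all 32851 windows of the same length. A match is a string of letters and not a binding site. All 5 windows were rich in G and C, from 62.0% in Dvl2 to 74.0% in Dvl3, where the median of all windows was 52.7%. They held 20 to 35 CpG dinucleotides, where the median of all windows was 7, and 26.5% of all windows held at least 20.

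Of the 10 genes, 1 was higher in Shh+ cells (Axin2), 1 was higher in Nfatc1+ cells (Lrp5), and 8 were not called, at an adjusted p under 0.05 from limma. Over all tested genes 31.4% were called, 14.9% with the higher level in Shh+ cells and 16.6% with the higher level in Nfatc1+ cells, and 68.6% were not called, so a count of 1 in 10 in each direction is near the background. Levels are FPKM, fragment counts scaled to transcript length and to the mapped fragments of the library, and log2 fold changes are Shh+ minus Nfatc1+ on log2(FPKM + 0.5). The median size of the log2 fold change was 0.13 over the 10 genes, 0.24 over all tested genes, and 0.18 over the 4792 tested genes whose mean lay within the range of the 10, from 17.54 to 209 FPKM. It was under 0.2 for 8 of the 10 genes, against 44.1% of all tested genes and 53.5% of those in the same range of levels. For 7 of the 10 genes all libraries of one population lay above those of the other, as they did for 70.7% of all tested genes. The number of calls was the same, 1 and 1, when limma's prior variance was made to follow expression. With that setting 37.0% of all tested genes were called, 18.1% towards Shh+ and 18.9% towards Nfatc1+ cells, and 63.0% were not. At an unadjusted p under 0.01 together with a fold above 2, none of the 10 genes was called, against 4.64% of tested genes towards Shh+ cells and 5.65% towards Nfatc1+ cells.

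**Figure D1:**
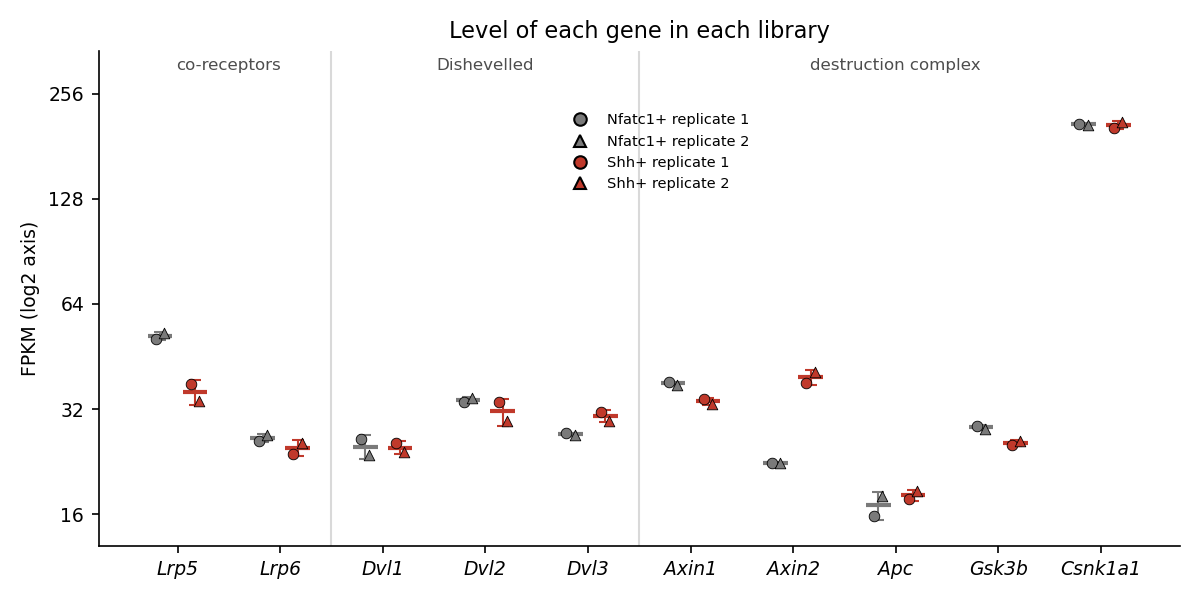
FPKM (log2 axis) of each of the 10 genes in each library; grey symbols are Nfatc1+ libraries, red symbols are Shh+ libraries, circles are replicate 1 and triangles are replicate 2, with the mean (thick line) and SD (bar, n = 2) of each group. Axin2 lies higher in both Shh+ libraries and Lrp5 lies higher in both Nfatc1+ libraries, while Csnk1a1 lies far above the other genes in all 4.

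**Figure D2:**
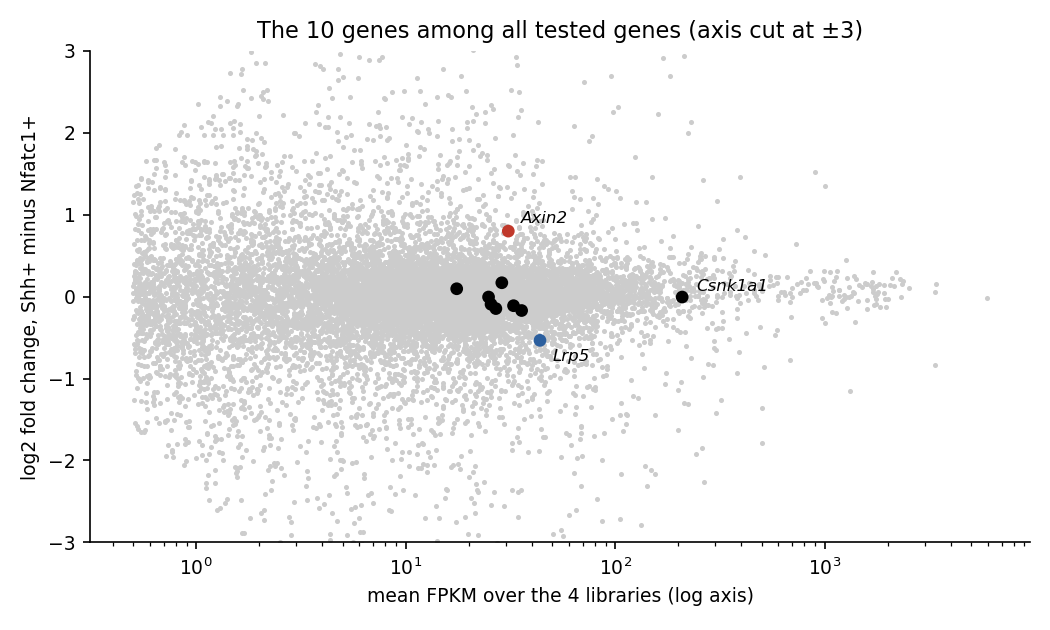
Log2 fold change, Shh+ minus Nfatc1+, against the mean FPKM over the 4 libraries (log axis) for all 12750 tested genes (light grey) and the 10 genes of the set (large points; Axin2 red, Lrp5 blue, the others black), with the vertical axis limited to 3 on each side. Of the 10 genes, 8 lie within 0.2 of zero.

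The libraries matched their labels. Shh was at 10.5 and 11.7 FPKM in the Nfatc1+ libraries and at 144 and 145 FPKM in the Shh+ libraries, and Nfatc1 was at 112 and 116 against 25.3 and 20.1 FPKM. All 8 epithelial markers checked were expressed, with Krt14 between 1030 and 1232 FPKM in every library. Of the 8, 1 was called towards Shh+ and 3 towards Nfatc1+ cells, against 14.9% and 16.6% of all tested genes. The 8 summed to 8858 and 8712 against 6671 and 6507 FPKM. Most of that gap was Krt5, at 4323 and 4317 against 2443 and 2415 FPKM. The fitted level was higher in Shh+ cells for 3 of the 8 and lower for 5. Relative to Nfatc1+ replicate 1, the depth read from how much 1 fragment was worth among genes below 0.3 FPKM was 0.938 for the second Nfatc1+ library and 0.933 and 0.573 for the Shh+ libraries. Absolute depth is unknown. Several marker lists moved with the groups. Over all tested genes 14.9% were called towards Shh+ and 16.6% towards Nfatc1+ cells, the background for the counts that follow. Of 20 tested immediate early and stress genes, which tissue digestion can induce, 11 were higher in Nfatc1+ cells and 0 in Shh+ cells by limma (15 and 2 at an unadjusted p under 0.05, 16 and 2 with the expression-dependent prior), and their summed level was 4437 and 4821 FPKM in Nfatc1+ and 3298 and 2986 FPKM in Shh+ libraries. Of 9 Merkel cell markers, 7 were higher in Nfatc1+ cells, with sums of 59.9 and 67.9 against 24.4 and 29.2 FPKM. The 10 melanocyte markers summed to 32.2 and 67.1 FPKM in Nfatc1+ and to 8.20 and 46.1 FPKM in Shh+ libraries, higher in replicate 2 of both groups, and 1 of them was called, towards Nfatc1+ cells. The 8 dermal fibroblast markers summed to 286 and 554 against 549 and 608 FPKM, with 1 called, Dcn, at 40.3 and 57.7 FPKM in Nfatc1+ and 326 and 425 FPKM in Shh+ libraries. The other 7 summed to 246 and 496 against 223 and 183 FPKM, the opposite direction, and 5 of them had a lower fitted level in Shh+ cells, of which Col3a1 was called with the expression-dependent prior (limma adjusted p = 0.0422). Endothelial and immune lists stayed between 3.66 and 8.42 FPKM in sum, with 0 of 5 and 0 of 3 tested genes called by limma (0 also at an unadjusted p under 0.05 and with the expression-dependent prior), and the T cell gene Cd3e was listed at 0 in all 4 libraries. The part of these differences in the results below was not tested. In sorted populations of this kind, fewer cells of a type and less RNA per cell cannot be told apart.

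Axin2 and Axin1 encode the scaffold of the destruction complex, and they behaved differently. The Axin2 gene spans bases 108920349 to 108950783 of chromosome 11 (GRCm38), and its transcript was at 22.4 and 22.5 FPKM in the Nfatc1+ libraries and at 38.1 and 40.8 FPKM in the Shh+ libraries. Both Shh+ libraries lay above both Nfatc1+ libraries, by 1.76-fold in the means. The log2 fold change was 0.80 (95% interval 0.59 to 1.01, limma adjusted p = 0.00348), and it stayed called in each fit that left out 1 library, with values from 0.75 to 0.85 and a highest adjusted p of 0.0255. Axin1, on chromosome 17 from 26138688 to 26195811, was at 38.2 and 37.6 FPKM in Nfatc1+ cells and at 34.2 and 33.1 FPKM in Shh+ cells. Its groups did not overlap either, but in the opposite direction and by 1.13-fold, and it was not called (log2 fold change −0.17, interval −0.37 to 0.03, limma adjusted p = 0.155).

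The order of the 2 Axin genes by FPKM was therefore reversed between the populations. FPKM is scaled to transcript length, which allows a rough comparison of paralogs within a library. A bias of single genes, such as from the antisense overlap at Axin2 given below, was not corrected. The change in share between populations is free of such a bias only if the bias is the same in both, which was not tested. Axin2 made up 36.9% and 37.4% of the summed Axin1 and Axin2 level in the Nfatc1+ libraries and 52.7% and 55.2% in the Shh+ libraries. Axin1 was the higher of the pair in both Nfatc1+ libraries, and Axin2 was the higher in both Shh+ libraries. The difference in share was 16.8 percentage points, beyond the SDs of 0.316 (Nfatc1+) and 1.78 points (Shh+). With 2 libraries against 2 a two-sided exact permutation test cannot go below p = 0.333, which is the value it gave. The summed level of the pair was 60.6 and 60.1 FPKM in Nfatc1+ cells and 72.3 and 73.9 FPKM in Shh+ cells, a smaller fold than that of Axin2 alone.

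**Figure D3:**
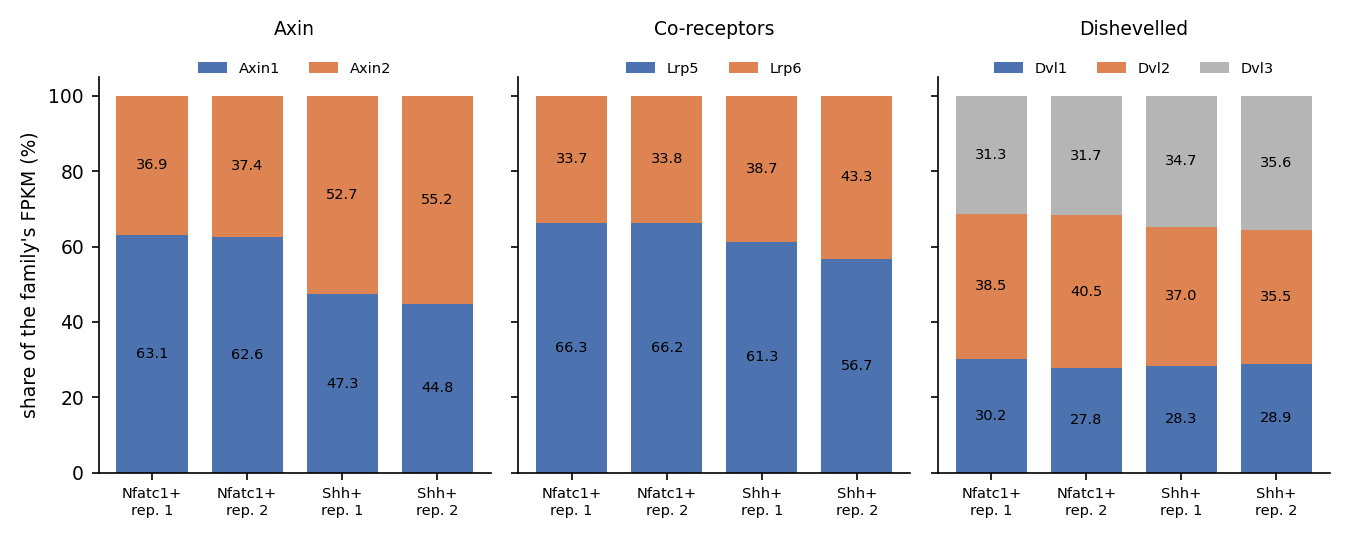
Share (%) of each paralog in the summed FPKM of its family, in each of the 4 libraries, for Axin1 and Axin2 (left), Lrp5 and Lrp6 (middle) and Dvl1, Dvl2 and Dvl3 (right). The Axin2 share is 36.9% and 37.4% in Nfatc1+ and 52.7% and 55.2% in Shh+ libraries, while the Dishevelled shares move by less than 4 percentage points between the group means.

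The other members of the destruction complex were not called, and their means differed by at most 1.11-fold. Csnk1a1, the priming kinase of β-catenin (chromosome 18), had the highest level of the set, at 210.0 and 208.7 FPKM in Nfatc1+ cells and 204 and 213 FPKM in Shh+ cells, above at least 97.7% of the tested genes in every library. The Shh+ libraries lay on either side of the Nfatc1+ libraries. Given the spread among these 4 libraries, the 95% interval of the log2 fold change ran from −0.20 to 0.19, up to 1.15-fold in either direction. Gsk3b (chromosome 16, 38089001 to 38246084), which adds the phosphates read by the ubiquitin ligase, was at 28.7 and 28.1 FPKM in Nfatc1+ cells and at 25.2 and 25.97 FPKM in Shh+ cells. It was lower in both Shh+ libraries but not called (log2 fold change −0.15, interval −0.34 to 0.05, limma adjusted p = 0.204). Its paralog Gsk3a, not one of the 10, was at 56.3 and 54.1 against 51.5 and 50.4 FPKM, and Gsk3b made up 33.7% and 34.2% of the pair in Nfatc1+ cells and 32.9% and 34.0% in Shh+ cells. Apc (chromosome 18), the second scaffold, had the lowest level of the set in both populations, at 15.8 and 18.1 FPKM in Nfatc1+ and 17.6 and 18.6 FPKM in Shh+ libraries, which overlapped (interval of the log2 fold change −0.17 to 0.36, limma adjusted p = 0.505).

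The co-receptor genes differed from each other. Lrp5, on chromosome 19 from 3584828 to 3686564, was at 50.9 and 52.8 FPKM in the Nfatc1+ libraries and at 37.8 and 33.6 FPKM in the Shh+ libraries. Both Nfatc1+ libraries lay above both Shh+ libraries, by 1.45-fold in the means (log2 fold change −0.53, interval −0.78 to −0.29, limma adjusted p = 0.0163). The call ended without Nfatc1+ replicate 1 (adjusted p = 0.067), without Nfatc1+ replicate 2 (0.0817) and without Shh+ replicate 2 (0.058) and held without Shh+ replicate 1 (0.0328), over alternatives that ranged from 0.00183 to 0.0932, the last with no filter on low values. With the expression-dependent prior it held in all 4 fits that left out a library (highest adjusted p = 0.00979). Lrp6, on chromosome 6 from 134446476 to 134566965, was at 25.9 and 26.9 FPKM in Nfatc1+ and 23.8 and 25.7 FPKM in Shh+ cells, not overlapping but 1.07-fold apart and not called (interval −0.31 to 0.12, limma adjusted p = 0.434). Lrp6 made up 33.7% and 33.8% of the pair in Nfatc1+ cells and 38.7% and 43.3% in Shh+ cells, a difference of 7.22 percentage points, against SDs of 0.0288 and 3.26 points (two-sided exact permutation p = 0.333, the smallest possible). Lrp5 was the higher of the pair in every library. Their summed level was 76.9 and 79.7 FPKM in Nfatc1+ cells and 61.6 and 59.3 FPKM in Shh+ cells.

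The Dishevelled genes, which carry the signal from the receptors to Axin, were not called in either direction (0 of 3 by limma, 0 of 3 also at an unadjusted p under 0.05 and with the expression-dependent prior). Over all tested genes 68.6% were not called by limma and 63.0% with that prior, so a count of 0 of 3 is near the background. Dvl1 (chromosome 4, 155847402 to 155859303) was at 26.3 and 23.6 FPKM in Nfatc1+ and 25.6 and 24.1 FPKM in Shh+ libraries, which overlapped. Dvl2 (chromosome 11, 70000595 to 70012301) was at 33.6 and 34.4 against 33.5 and 29.5 FPKM, lower in both Shh+ libraries, by little in replicate 1 and by more in replicate 2, and was not called (limma adjusted p = 0.418). Dvl3 (chromosome 16, 20516982 to 20534010) was at 27.3 and 26.9 against 31.4 and 29.7 FPKM, higher in both Shh+ libraries (log2 fold change 0.17, interval −0.04 to 0.37, limma adjusted p = 0.168). The intervals of Dvl1 and Dvl2, −0.25 to 0.24 and −0.36 to 0.14, leave room for differences of up to 1.28-fold. Summed over the 3 genes, Dishevelled was at 87.2 and 84.9 FPKM in Nfatc1+ cells and at 90.4 and 83.3 FPKM in Shh+ cells, and each gene made up between 27.8% and 40.5% of the sum in every library. The Dvl3 share was 31.3% and 31.7% in Nfatc1+ and 34.7% and 35.6% in Shh+ cells (exact permutation p = 0.333, the smallest possible). In the GENCODE annotation the 3′ end of Dvl2 overlaps the gene Acadvl on the opposite strand by 2119 bases. Counting by strand is not stated for these files, so reads there cannot be assigned to one of them. The same holds for the antisense genes Gm11670, which overlaps Axin2 by 2706 bases, and Gm16618, which overlaps Dvl3 by 785 bases. It also holds for the opposite-strand pseudogenes AC140047.1, over Axin1 by 436 bases, and Gm10548, over Apc by 849 bases. None of these was among the tested genes, and shorter opposite-strand overlaps lie at Gsk3b and Dvl1. Overlaps are those of whole gene spans, introns included, so their effect on FPKM is not known. Acadvl was at 29.7 and 28.65 FPKM in the Nfatc1+ libraries and at 22.7 and 20.9 FPKM in the Shh+ libraries.

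**Figure D4:**
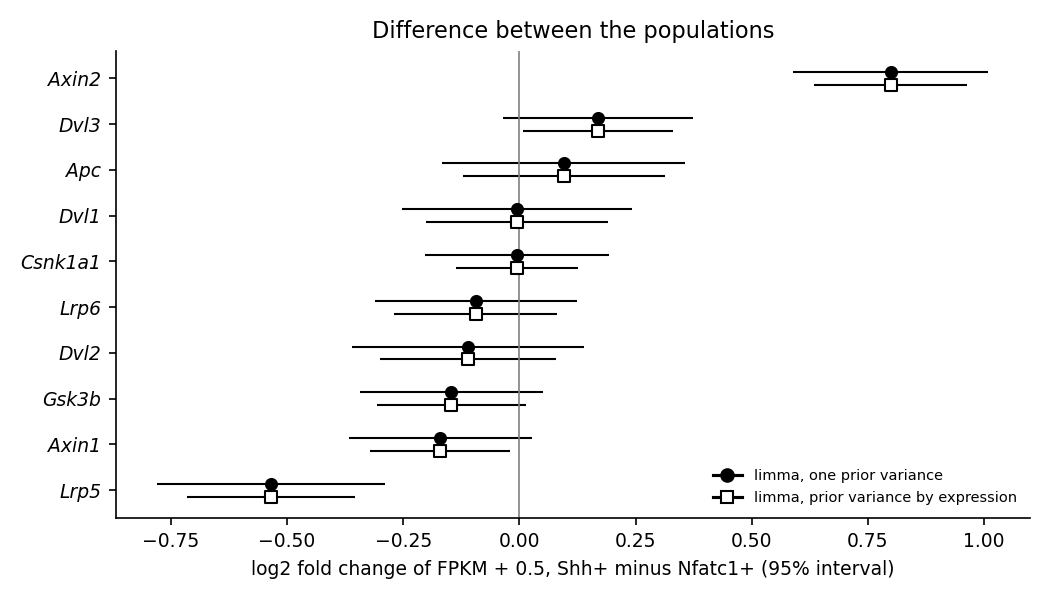
Log2 fold change of FPKM + 0.5, Shh+ minus Nfatc1+, of the 10 genes with its 95% interval from limma, with one prior variance for all genes (filled circles) and with a prior variance that follows expression (open squares). The intervals of Axin2 and Lrp5 lie clear of zero in both fits, and those of Axin1 and Dvl3 do so only in the second, where their adjusted p was 0.0764 and 0.0959.

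The order of levels was the same in both populations apart from Axin2 and 2 exchanges of neighbours, Gsk3b with Dvl3 and Lrp6 with Dvl1. In Nfatc1+ cells it ran Csnk1a1, Lrp5, Axin1, Dvl2, Gsk3b, Dvl3, Lrp6, Dvl1, Axin2 and Apc, and neighbours were separated in both libraries except Dvl3 from Lrp6 and Lrp6 from Dvl1. In Shh+ cells Axin2 stood second after Csnk1a1, followed by Lrp5, Axin1, Dvl2, Dvl3, Gsk3b, Dvl1, Lrp6 and Apc. There Lrp5 overlapped Axin1, Axin1 overlapped Dvl2, Dvl2 overlapped Dvl3, Gsk3b overlapped Dvl1 and Dvl1 overlapped Lrp6, and the other neighbours were separated. All 10 genes were above at least 57.4% of the tested genes in every library.

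β-catenin, the substrate of the complex, had a larger fold change than any of the 10 genes. Ctnnb1 was at 560.5 and 571 FPKM in Nfatc1+ cells and at 1399.8 and 1477 FPKM in Shh+ cells, which lay 1.35 higher on the log2 scale (limma adjusted p = 0.000958). As a ratio of transcript levels, Ctnnb1 over the sum of Axin1 and Axin2 was 9.37 ± 0.184 in the Nfatc1+ libraries and 19.7 ± 0.450 in the Shh+ libraries (SD, n = 2). Over Apc it was 35.4 and 31.6 against 79.4 and 79.4, and over Gsk3b it was 19.6 and 20.3 against 55.6 and 56.9. For each ratio both Shh+ libraries lay above both Nfatc1+ libraries (two-sided exact permutation p = 0.333, the smallest possible). The ratios share Ctnnb1, which was 2.54-fold higher in Shh+ cells, more than any of the denominators changed. Their separation follows from Ctnnb1, so they are not separate results about the complex. These are ratios of RNA and give no measure of the proteins.

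Other genes that act with the complex, the co-receptors and Dishevelled were taken from 4 lists of 75 genes, of which 72 were tested. Of these, 13 were called towards Shh+ cells and 11 towards Nfatc1+ cells, against a background of 14.9% and 16.6%, and 48 were not called. The median log2 fold change was −0.01, and 0.0018 over all tested genes. The partners and kinases of the destruction complex had 2 of 24 genes called in each direction, with a median of −0.04. Besides Ctnnb1, casein kinase 1ε (Csnk1e) was at 58.8 and 56.8 FPKM in Nfatc1+ cells and at 71.0 and 71.6 FPKM in Shh+ cells, a 1.23-fold difference (limma adjusted p = 0.0415) whose call ended without any 1 of the 4 libraries (0.118 to 0.184). Ppp2r5a, a regulatory subunit of protein phosphatase 2A, was 1.40-fold higher in Nfatc1+ cells, at 27.1 and 25.6 against 20.3 and 17.4 FPKM. That call ended without Nfatc1+ replicate 1 (0.132) or 2 (0.0968) or Shh+ replicate 2 (0.0908), and with no filter on low values (0.154). Amer2, an Apc-binding membrane protein, was under 1 FPKM in every library, at 0.829 and 0.894 against 0.426 and 0.409 FPKM, and was not called with the expression-dependent prior (adjusted p = 0.0849) or without Nfatc1+ replicate 2 (0.0505).

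Among 13 genes of the ubiquitin ligase and of Axin turnover, 3 were called towards Shh+ cells and 0 towards Nfatc1+ cells by limma (0 also at an unadjusted p under 0.05 and with the expression-dependent prior), with a median log2 fold change of 0.0072. Over all tested genes 14.9% and 16.6% were called in these directions. Siah1b, a ubiquitin ligase of the Siah family, was at 9.14 and 7.95 FPKM in Nfatc1+ cells and 12.4 and 13.8 FPKM in Shh+ cells. Its paralog Siah1a, in the same list, went the other way, at 21.4 and 20 against 16.0 and 18.8 FPKM. Siah1a was lower in both Shh+ libraries but not called (log2 fold change −0.25, limma adjusted p = 0.156). Skp1a, a subunit of the ligase that takes up phosphorylated β-catenin, and Tnks2, a tankyrase that marks Axin for degradation, were both 1.25-fold higher in Shh+ cells. The count of 3 fell to 1 (Siah1b) without Nfatc1+ replicate 1 and to 0 without any 1 of the other 3 libraries. It was also 0 with no filter on low values. Btrc, the subunit that recognises phosphorylated β-catenin, was at 5.09 and 5.36 against 5.30 and 4.90 FPKM (limma adjusted p = 0.783).

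Regulators and partners of Dishevelled included genes with large differences in both directions. Of 18 genes, 2 were called towards Shh+ cells and 5 towards Nfatc1+ cells, against 14.9% and 16.6% of all tested genes. The median was 0.0058. Dixdc1, which shares the DIX domain with Dishevelled and Axin, was at 22.8 and 21.9 FPKM in Nfatc1+ cells and at 5.61 and 4.47 FPKM in Shh+ cells, a 4.43-fold difference (−2.05 on the log2 scale, limma adjusted p = 0.00107). Dact2, which encodes a Dishevelled-binding protein of the Dapper family, was at 7.501 and 8.13 against 1.54 and 1.13 FPKM, 5.85-fold higher in Nfatc1+ cells. Nedd4l, a ubiquitin ligase that can target Dishevelled, was 2.02-fold higher there, and Cxxc4, a Dishevelled-binding inhibitor, was at 1.28 and 1.28 against 0.442 and 0.274 FPKM. In the other direction, the inhibitor Nkd1 was at 4.49 and 5.99 FPKM in Nfatc1+ and 18.7 and 19.9 FPKM in Shh+ cells, and Ccdc88c, which encodes the Dishevelled-binding protein Daple, was at 3.38 and 2.999 against 7.02 and 6.14 FPKM. These 6 genes were named because they were called and had the largest changes of the list, so the separation of their libraries adds no support. For all 6 the libraries of one population lay above those of the other, as they did for 70.7% of all tested genes. Each of the 6 kept its direction in every alternative. With no filter on low values 4 of the 6 calls ended (Nkd1, Ccdc88c, Nedd4l and Cxxc4, adjusted p = 0.0584 to 0.0747).

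The partners and inhibitors of the co-receptors included genes with large differences in both directions. Of 17 tested genes, 6 were called towards Shh+ cells and 4 towards Nfatc1+ cells, against 14.9% and 16.6% of all tested genes. The median was −0.02. Lrp4, a relative of Lrp5 and Lrp6 that binds sclerostin and Sostdc1, was at 31.97 and 35.1 FPKM in Nfatc1+ cells and at 156 and 166 FPKM in Shh+ cells. Its level was 0.416 and 0.441 of the summed Lrp5 and Lrp6 level in Nfatc1+ cells and 2.53 and 2.80 in Shh+ cells. By FPKM, Lrp4 was therefore below the sum in Nfatc1+ cells and above it in Shh+ cells. Sostdc1, a secreted ligand of these receptors, went the opposite way, at 239 and 232 FPKM in Nfatc1+ cells and 48.0 and 45.9 FPKM in Shh+ cells. Kremen2, the Dkk receptor that removes Lrp6 from the membrane, was at 15.6 and 16.8 against 207 and 219.8 FPKM, and the Dkk gene Dkk4 was at 0.298 and 1.04 against 57.4 and 100.5 FPKM. Dkk3, a divergent member of that family, was 2.25-fold higher in Nfatc1+ cells, as was Lypd6b by 1.94-fold. Lypd6, the paralog of Lypd6b in the same list, went the other way, at 4.26 and 4.65 against 6.87 and 8.07 FPKM. It was 1.68-fold higher in Shh+ cells (limma adjusted p = 0.0130). The call of Dkk3 ended without Nfatc1+ replicate 2 (adjusted p = 0.0524). Cdk14 and Ccny encode a kinase and the cyclin partner with which it phosphorylates Lrp6. Cdk14 was 1.79-fold higher in Shh+ cells, at 2.59 and 3.23 against 4.69 and 5.73 FPKM, while Ccny was 1.28-fold higher in Nfatc1+ cells, at 32.4 and 35.0 against 25.7 and 27.0 FPKM. The call of Cdk14 ended without Nfatc1+ replicate 1 (0.0832) or Shh+ replicate 2 (0.0806), and that of Ccny without any 1 library (0.0927 to 0.179) and with upper-quartile scaling (0.0505). With no filter on low values the calls of Dkk4 (0.0552), Lypd6b (0.0827), Ccny (0.113), Dkk3 (0.126) and Cdk14 (0.161) ended.

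**Figure D5:**
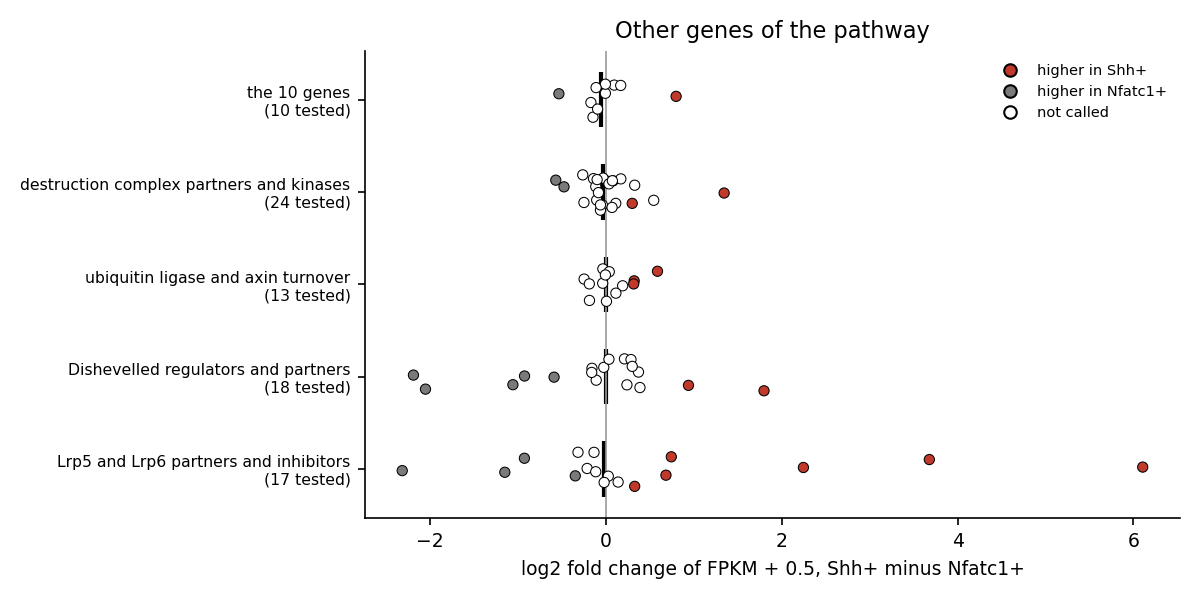
Log2 fold change of FPKM + 0.5, Shh+ minus Nfatc1+, of the 10 genes and of the tested genes of 4 lists of pathway genes, where red circles are genes called towards Shh+ cells, grey circles genes called towards Nfatc1+ cells and open circles the rest, and black lines are medians; vertical scatter has no meaning. The core genes and the ligase list lie within 1 of zero. Values above 2 belong to partners of the co-receptors, and those more than 2 below zero to partners of Dishevelled and of the co-receptors.

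The tested genes whose profile over the 4 libraries was nearest to that of Axin2, by Euclidean distance of log2(FPKM + 0.5) after each gene was centred on its own mean, were Dusp18, Ccdc89, Pdxp, Epha1 and Npdc1, at distances of 0.0266 to 0.0466. Epha1, an ephrin receptor, also had a level near that of Axin2, at 22.6 and 22.4 FPKM in Nfatc1+ cells and 38.0 and 39.5 FPKM in Shh+ cells. Dusp18 and Ccdc89 were low, with a highest value of 1.57 FPKM, and their folds in FPKM were 2.37 and 2.83, larger than the 1.76 of Axin2, so their nearness rests on the added 0.5 FPKM. The folds of Pdxp, Epha1 and Npdc1 were 1.79, 1.72 and 1.75. With 4 libraries in 2 groups, the distance reflects mainly the size of the difference between the groups.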

How the data were processed

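RNA from sorted Nfatc1+ and Shh+ cells was sequenced in 2 libraries each. The authors aligned the reads with TopHat2 2.0.13 to build GRCm38/mm10 and quantified them with Cufflinks 2.2.1, and the deposited table gives FPKM per gene symbol and library. HTSeq is named in the submitters' processing notes without a role. The annotation and the strand setting are not given in the sources used here. FPKM carries no counts, so absolute depth is unknown, and a count test was not used.

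Log2(FPKM + 0.5) of 12750 genes, those whose mean reached 0.5 FPKM, was fitted with limma 3.58.1 in R 4.3.3, with one prior variance for all genes, no covariate and Benjamini-Hochberg adjustment over all tested genes. Fold changes on this scale understate those of low genes. Intervals are 95% intervals of single genes, not adjusted. Like the p-values, they refer to the variation among these 4 libraries alone. Fits that leave out a library keep 1 library in that group, which is assumed to vary like the other group. Shares and ratios were compared by exact permutation. The fit was run on simulated data with known changes in a small share of the genes, to check that it recovers their direction. That simulation does not test the adjusted p-values for data with as many changes as these. Gene positions are from GENCODE M21 (GRCm38).

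The 10 genes and the pathway and marker lists were chosen with earlier results of these data known. Genes named were the 10, Shh, Nfatc1, Ctnnb1, up to 4 called genes in each direction per pathway list by size of change, and the 5 nearest to Axin2. Gsk3a, Btrc, Siah1a, Lypd6, Acadvl, Gm11670, Gm16618, AC140047.1, Gm10548, Krt5, Krt14, Cd3e, Dcn and Col3a1 were named outside this rule, after their values had been seen. Alternatives were other pseudocounts, filters, scalings, priors, a replicate block, the form of threshold the study used and leaving out each library. The expression-dependent prior with each library left out was added after seeing the data.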

Additional observations from a re-analysis of the deposited data

How the results depend on the processing

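Axin2 kept its direction in all 14 alternatives and its call in 13. It did not reach a fold of 2, so that when a fold above 2 was asked for beside an unadjusted p under 0.01, 0 of the 10 genes were called in either direction, and 591 and 720 of all tested genes were called higher in Shh+ and in Nfatc1+ cells. With no filter on low values 0 of the 10 genes were called higher in Nfatc1+ cells. Over all 23361 genes, 751 and 977 were then called higher in Shh+ and in Nfatc1+ cells. In the main fit these were 1898 and 2111 of 12750, so calls fell over all genes too. Leaving out 1 library gave 0 to 1 of the 10 genes higher in Nfatc1+ cells, and 1097 to 1165 and 1210 to 1433 tested genes higher in Shh+ and in Nfatc1+ cells. Each such fit has fewer samples.

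Csnk1a1 and Dvl1, which were not called in any fit, changed sign. The log2 fold change of Csnk1a1 was 0.0086 with upper-quartile scaling and ran from −0.034 (without Shh+ replicate 2) to 0.024 (without Shh+ replicate 1), the last with either prior. That of Dvl1 was 0.0086 with upper-quartile scaling, 0.012 with quantile normalization, and ran from −0.084 (without Nfatc1+ replicate 2) to 0.073 (without Nfatc1+ replicate 1), and was 0.036 without Shh+ replicate 2, with either prior. The cause was not tested.

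Counts of called list genes moved as follows, given as higher in Shh+ and then in Nfatc1+ cells where both moved. With no filter, partners and kinases of the complex had 1 in Nfatc1+ cells, the ligase list 0 in Shh+ cells, Dishevelled regulators 0 and 2, and co-receptor partners 3 and 1. With the fold threshold these were 1 and 0, 0 in Shh+ cells, 1 and 3, and 3 and 2. In the main fit the lists had 24, 13, 18 and 17 tested genes, with 14.9% and 16.6% of all tested genes called. Calls also fell over all genes, to 751 and 977 of 23361 with no filter. With the fold threshold they fell to 4.64% and 5.65% of tested genes. A filter at a mean of 5 FPKM left 3 Dishevelled regulators higher in Nfatc1+ cells, where Dact2 and Cxxc4 lay below the filter and were not tested. Leaving out 1 library gave 1 and 0 to 2 partners and kinases, 0 to 1 ligase genes higher in Shh+ cells, and 3 to 5 and 2 to 3 co-receptor partners. Over 36 named genes and 497 alternatives, 423 kept direction and call, 68 lost the call and 6 changed sign. Scaling moved the median of all tested genes by no more than 0.015 on the log2 scale.

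The labels number the libraries 1 and 2 in both groups, without saying that a number marks a shared litter or day. The correlation of the deviations of same-numbered libraries was 0.114 over tested genes and 0.203 over those in the range of levels of the 10 genes. With only 2 pairs and no such label, the numbers were not taken to pair the samples. With the replicate number as a block, Axin2 (adjusted p = 0.00847) and Lrp5 (0.0294) stayed called, 1719 and 1980 tested genes were called, and 1 gene each was called higher in Shh+ cells among partners and kinases and in the ligase list (Csnk1e 0.0748, Skp1a 0.0698, Tnks2 0.065), and Ccny lost its call (0.0531).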
